A study of Mus musculus with 8 samples.

Results

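The genes Apoa1, Apoc3, Apoa4 and Apoa5 stand side by side in a short stretch of mouse chromosome 9, and 6 of the 83057 entries of the deposited table lie there. The entries are long non-coding RNAs of the NONCODE catalogue. They were taken where their span lay wholly within chr9:46225000-46275000 (mm10), on either strand, and each was assigned to the apolipoprotein gene it overlapped. Apoa4 had 3 entries, all annotated on the strand opposite to the gene, and 2 of these also covered Gm10680, an antisense gene over the end of Apoa4. Apoa1, Apoc3 and Apoa5 had 0 entries, so their RNA was not analysed here. The other 3 entries lay between Sik3 and Apoa1, over no apolipoprotein gene.

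The cluster encodes proteins carried on chylomicrons, very-low-density lipoproteins (VLDL) and high-density lipoproteins. ApoA-I is the main protein of high-density lipoprotein and activates the cholesterol-esterifying enzyme LCAT, apoC-III slows the lipolysis and uptake of triglyceride-rich particles, and apoA-V promotes lipolysis by lipoprotein lipase. ApoA-IV is made mostly by the intestine and also by mouse liver, where it is known to increase with fasting and with hepatic triglyceride and to enlarge secreted VLDL; the liver-enriched factors HNF4A and CREB3L3 are known regulators of its gene.

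Liver RNA came from male C57BL/6 mice of about 20 weeks of age, all killed at 10 am and matched for age and weight. The ad libitum group was 4 mice with food always at hand, and the fasted group was 4 mice kept without food for 24 h. Each library was 1 biological replicate made from 1 µg of total RNA with a strand-preserving kit. In whole liver, fewer cells of a type and less RNA per cell cannot be told apart.

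Gm10680 overlaps the last exon of Apoa4, and the stretch below shows the join between its intron and its second exon on both strands (chr9:46243111-46243170, mm10, from GENCODE release 21). It is shown because the entries of the window that rose most span this stretch, and because the same bases belong to the coding part of Apoa4. The reads of this stretch alone are not given. Capitals mark bases of the second exon of Gm10680, and lower case marks its intron.
Gm10680, minus strand: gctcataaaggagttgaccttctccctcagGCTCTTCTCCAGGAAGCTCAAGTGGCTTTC
Apoa4, plus strand: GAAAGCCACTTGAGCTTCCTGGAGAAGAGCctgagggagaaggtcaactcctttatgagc
The 207-base intron of Gm10680 (chr9:46243141-46243347) began with GT and ended with AG on the Gm10680 strand, as most introns do, whereas the same bases read CT and AC on the Apoa4 strand. All 520 bases of the second exon of Gm10680 lay in the Apoa4 coding part. The 102 bases before the first exon of Apoa4 (chr9:46240594-46240695, plus strand, RefSeq on GRCm38.p6) lay within another entry that changed, and are shown to place it over the start of the gene.
Apoa4 upstream, plus strand: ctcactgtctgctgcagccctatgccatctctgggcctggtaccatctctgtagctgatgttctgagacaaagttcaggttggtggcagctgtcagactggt

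Apoa4 itself (ENSMUSG00000032080.6, chr9:46240696-46243459, plus strand) has 3 exons of 507, 127 and 1181 bases. The entry NONMMUT068953.2 (chr9:46239841-46242032, minus strand) covered the first 2 exons. Its span took in 855 bases before the gene, 634 bases of Apoa4 exons, the 265-base first intron and 438 bases of the second intron, and it was the span of the GENCODE gene Gm47528, a provisional annotation with no assigned class. It had 2 exons and 2183 bases, 9 fewer than its span, and is called the first-exons entry below. The entry NONMMUT068954.2 (chr9:46242621-46243529, minus strand, 702 bases) had the exons of the GENCODE transcript of Gm10680 (ENSMUSG00000074373.6), of which 632 bases lay in Apoa4 exons. The entry NONMMUT134262.1 (chr9:46242620-46243530, minus strand, 704 bases) was nearly the same transcript, with at least 633 bases in Apoa4 exons. They are called the shorter and the longer Gm10680 entry.

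The upstream entries were all on the plus strand and began at the same base, 968 bases after the end of Sik3. NONMMUT132476.1 (chr9:46225163-46227705, 936 bases) ended 874 bases before Apoa1 (ENSMUSG00000032083.8, chr9:46228580-46230466). NONMMUT068951.2 and NONMMUT068952.2 shared 1 span (chr9:46225163-46228308) and differed in their exons, with 2127 and 1335 bases, and ended 271 bases before Apoa1. The deposited coding-potential score (CNCI) of the 6 entries lay between -0.147 and 0.

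**Figure D1:**
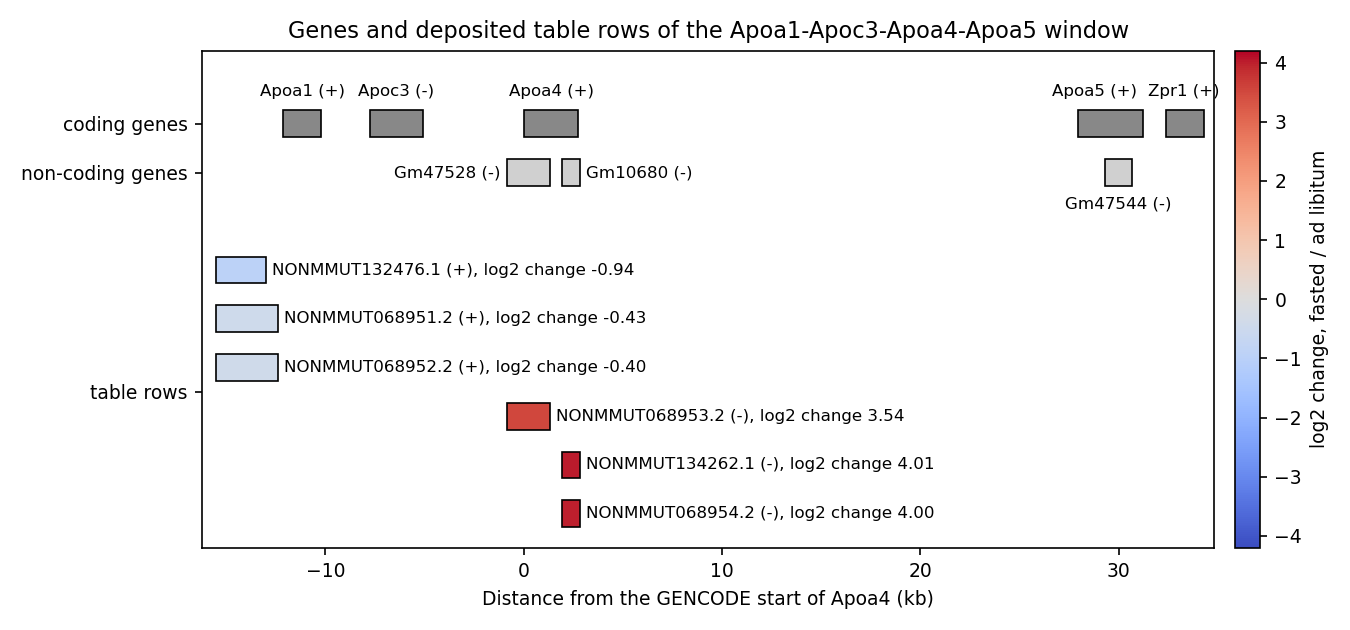
Map of the window in kb from the GENCODE start of Apoa4, with coding genes, non-coding genes and the 6 table entries as boxes from start to end, strand in brackets; the colour of an entry is its log2 change in fasted against ad libitum livers. The 3 entries over Apoa4 had log2 changes of 3.54 to 4.01, the 3 entries upstream of Apoa1 had -0.94 to -0.40, and no entry lay over Apoa1, Apoc3 or Apoa5.

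Total counts per library ran from 51107745 to 98464634 reads in the ad libitum group and from 126365222 to 169698844 in the fasted group; without the mitochondrial 16S rRNA, which was left out of all totals and is empty in ad libitum replicate 3, they ran from 51107745 to 68691606 and from 90243439 to 119486211. Fasted replicates 1 to 3 stood apart from fasted replicate 4. The first principal component, taken over the entries of highest variance only, held 76.4% of the variance of those entries. It placed ad libitum libraries from -43 to -39, fasted replicate 4 at -19.4 and the other fasted libraries from 58.8 to 63.2. Counts were mostly even numbers, and the share of odd counts among entries with 21 to 200 reads was 9.21 to 10.3% in the ad libitum libraries, 16.5 to 17.8% in fasted replicates 1 to 3 and 10.8% in fasted replicate 4. The part of this difference in the results was not tested; the changes named as passed are therefore also given for fasted replicate 4 alone against the 4 ad libitum libraries, a comparison in which the spread of that single library is taken to be that of the rest. Marker values below are sums of catalogue entries that share exon bases with the gene on either strand, and not of its full mRNA. Those of Ahsg, Reln and Vil1 each rest on 1 entry of the opposite strand. So do those of the Kupffer marker Csf1r, the endothelial marker Clec4g and the cholangiocyte marker Cftr. The endothelial marker Stab2 rests on 2 such entries. The table held 3 of 12 hepatocyte markers, of which Cps1 (log2 change 1.34) and Ahsg (2.28) rose and Ttr (-1.28) fell. Fasted replicate 4 alone gave 1.31 for Cps1 and -1.31 for Ttr, which passed, but 0.52 for Ahsg, which did not (edgeR adjusted p = 0.272): Ahsg held 8.37, 10.0 and 12.7 CPM (counts scaled to a common library total) in fasted replicates 1 to 3 and 2.47 CPM in fasted replicate 4. The hepatocyte markers had a summed level of 237 to 340 CPM in ad libitum and 542 to 682 in fasted libraries. Cps1 alone held 187 to 288 and 513 to 650 CPM, so the sum mostly follows that gene, while Ttr fell. Of 11 enterocyte markers the table held 2, and Vil1, the only one tested, had 8.09 to 8.79 CPM in ad libitum and 6.77 to 7.90 in fasted libraries. The summed markers of other cells are given for ad libitum and then for fasted libraries. They ran from 3.02 to 4.16 and 2.64 to 2.95 CPM for Kupffer cells (2 of 8 held). Of these, Csf1r fell (log2 change -0.44, edgeR adjusted p = 0.0209), with -0.33 in fasted replicate 4 alone. The sums ran from 2.24 to 2.68 and 2.22 to 3.57 CPM for endothelial cells (4 of 7 held, 3 tested and summed). For stellate cells (4 of 7 held) they ran from 15 to 26.5 and 19 to 56.1 CPM. Among the stellate markers, Reln rose (log2 change 2.48), with 34.6, 39.0 and 43.5 CPM in fasted replicates 1 to 3 but 6.72 CPM in fasted replicate 4 (0.28 there, edgeR adjusted p = 0.675), against 4.10 to 7.87 CPM in ad libitum libraries. Col1a1 (-1.10) and Lrat (-0.91) fell, and Col1a1 had -0.38 and Lrat -0.80 in fasted replicate 4 alone (edgeR adjusted p = 0.672 and 0.338). The summed markers ran from 0.891 to 1.65 and 0.858 to 1.31 CPM for cholangiocytes (5 of 6 held, 3 tested and summed) and from 2.52 to 4.64 and 2.50 to 3.96 for blood (1 of 6 held), and exocrine pancreas had 0 of 6. Their part in the results was not tested.

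Of the 6 entries, 4 passed the test between fasted and ad libitum livers, which was the quasi-likelihood test of edgeR, with Benjamini-Hochberg adjustment over all 40840 entries tested and a threshold of 0.05. All 3 entries over Apoa4 rose, between 11.7-fold and 16.1-fold, and 1 of the 3 upstream entries fell. Among all entries tested, 17.2% of the entries passed, 9.55% higher and 7.67% lower in fasted livers. The values of the groups did not overlap in 5 of the 6 entries, against 19.3% of all entries tested. With fasted replicate 4 alone, the 3 entries over Apoa4 passed, against 3.29% of all entries.

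The longer Gm10680 entry, NONMMUT134262.1, held 45.1, 48.5, 48.1 and 58.5 CPM in ad libitum replicates 1 to 4 and 1065, 878, 522 and 765 CPM in fasted replicates 1 to 4. Every fasted library was far above every ad libitum library, with fasted replicate 1 highest and fasted replicate 3 lowest of the fasted group. The log2 change was 4.01 ± 0.21 (SE, n = 4 per group; 16.1-fold, edgeR adjusted p = 5.8e-07) and stood at place 112 from the top of the 40840 entries. It was 3.93 with fasted replicate 4 alone (edgeR adjusted p = 1.72e-05). Per kb of length, its level went from 71.1 ± 8.26 to 1147 ± 322 CPM per kb (SD, n = 4), which moved it from place 421 to place 61 of all entries tested by mean level per kb.

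The shorter entry, NONMMUT068954.2, which is Gm10680 as annotated, gave almost the same values. It held 46.5, 47.6, 44.8 and 59.7 CPM in the ad libitum libraries and 1053, 879, 511 and 734 CPM in the fasted libraries, and the order of the fasted libraries was that of the longer entry. The log2 change was 4.00 ± 0.21 (SE; edgeR adjusted p = 1.1e-06), and 3.88 with fasted replicate 4 alone (edgeR adjusted p = 3.57e-05). These values are not independent of those of the longer entry, since their transcripts differ by 2 bases in length.

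The first-exons entry, NONMMUT068953.2, covers other bases of Apoa4, among them those before its start. It held 28.7, 30.9, 29.9 and 35.7 CPM in the ad libitum libraries and 461, 395, 258 and 345 CPM in the fasted libraries, again without overlap and with fasted replicate 1 highest and fasted replicate 3 lowest. The log2 change was 3.54 ± 0.17 (SE; 11.7-fold, edgeR adjusted p = 6.7e-08), place 171 from the top, and 3.46 with fasted replicate 4 alone (edgeR adjusted p = 9.12e-07). Its level per kb was lower than that of the Gm10680 entries, at 14.3 ± 1.40 CPM per kb in ad libitum and 167 ± 39.1 in fasted livers (SD, n = 4).

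**Figure D2:**
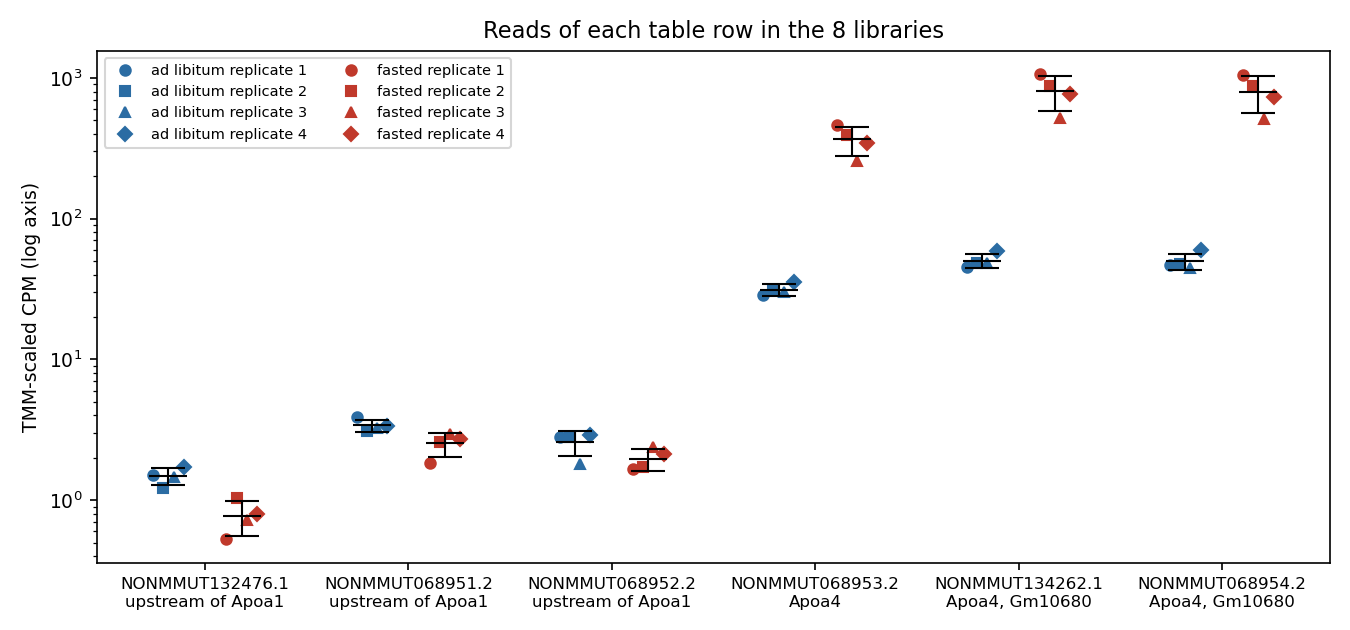
CPM scaled with TMM factors (log axis) of the 6 entries in the 8 libraries, blue for ad libitum and red for fasted, with a symbol for each replicate number and the mean with SD in black. The Apoa4 entries lie at 28.7 to 59.7 CPM in ad libitum and at 258 to 1065 CPM in fasted libraries, while the upstream entries lie under 4 CPM in all libraries.

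In these entries the fasted libraries were spread more widely than the ad libitum libraries. The highest fasted library held 2.04 times the lowest in NONMMUT134262.1, 2.06 times in NONMMUT068954.2 and 1.78 times in NONMMUT068953.2, against 1.30, 1.33 and 1.24 times in the ad libitum group. Over the 12420 entries with at least 100 reads in every library, the median of this ratio was 1.29 in both groups, and 5.39% of them had a fasted ratio at least as large as that of NONMMUT134262.1.

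The sum of the 3 entries over Apoa4, all annotated on the opposite strand, is called the Apoa4 sum. It held 93.7, 95.8, 95.4 and 117 CPM in the ad libitum libraries and 2066, 1694, 992 and 1365 CPM in the fasted libraries. The groups were far apart, and the lowest fasted value belonged to fasted replicate 3, not to the library that stood apart. In the fit over 11890 genes, of which 13.2% were higher and 11.3% lower in fasted livers, the log2 change of the Apoa4 sum was 3.93 ± 0.22 (SE, edgeR adjusted p = 6.4e-06). With fasted replicate 4 alone, where 5.25% of the genes passed, it was 3.76 (edgeR adjusted p = 4.6e-05). The sum of the 2 entries over Gm10680 changed by 4.03 on the log2 scale (edgeR adjusted p = 9.7e-06), and by 3.86 with fasted replicate 4 alone. These entries are also part of the Apoa4 sum. How a read in overlapping entries was counted is not known.

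These entries are annotated on the minus strand but lie over exons of Apoa4, a plus-strand gene, and no entry lay on the plus strand for comparison. How much of their signal came from Apoa4 mRNA and how much from antisense RNA was not tested. Elsewhere in the table, 19 pairs of single-exon entries on opposite strands shared at least 90% of their bases and held at least 800 reads. All 19 had read totals within 1.25-fold of each other, with a median ratio of 1.06.

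The 2 nearly identical Gm10680 entries shared their reads almost evenly. The longer one held 49.2 to 51.8% of the reads of both over the 8 libraries, with means of 50.2 ± 1.19% in ad libitum and 50.5 ± 0.454% in fasted livers (SD, n = 4, exact two-sided permutation p = 0.714). Nearly identical entries split about evenly over the whole table, so this p says nothing of the livers. Over the table, 199 same-strand pairs of this kind had a median ratio of 1.05, and 92.0% of them lay within 1.25-fold. Where the lengths of a pair differed, the longer entry held fewer reads in 125 of 256 library values (48.8%). In ad libitum replicate 1, NONMMUT134262.1 held 3154 reads and the shorter NONMMUT068954.2 held 3258.

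The first-exons entry rose less than the Gm10680 entries, a comparison chosen after the values were seen. For each read in the 2 Gm10680 entries, it held 0.313, 0.321, 0.322 and 0.302 reads in the ad libitum libraries and 0.218, 0.225, 0.250 and 0.230 reads in the fasted libraries. All fasted libraries were below all ad libitum libraries, and fasted replicate 4 lay within the range of the other fasted libraries. The mean ratio fell from 0.315 ± 0.00929 to 0.231 ± 0.0139 (SD, n = 4; difference -0.0839, exact two-sided permutation p = 0.0286, the smallest that 4 against 4 libraries allow). Since the comparison was chosen from these same values, this p is no separate support. The first-exons entry holds intron and upstream bases as well as exons, and the reads of these parts are not given separately in the table.

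**Figure D3:**
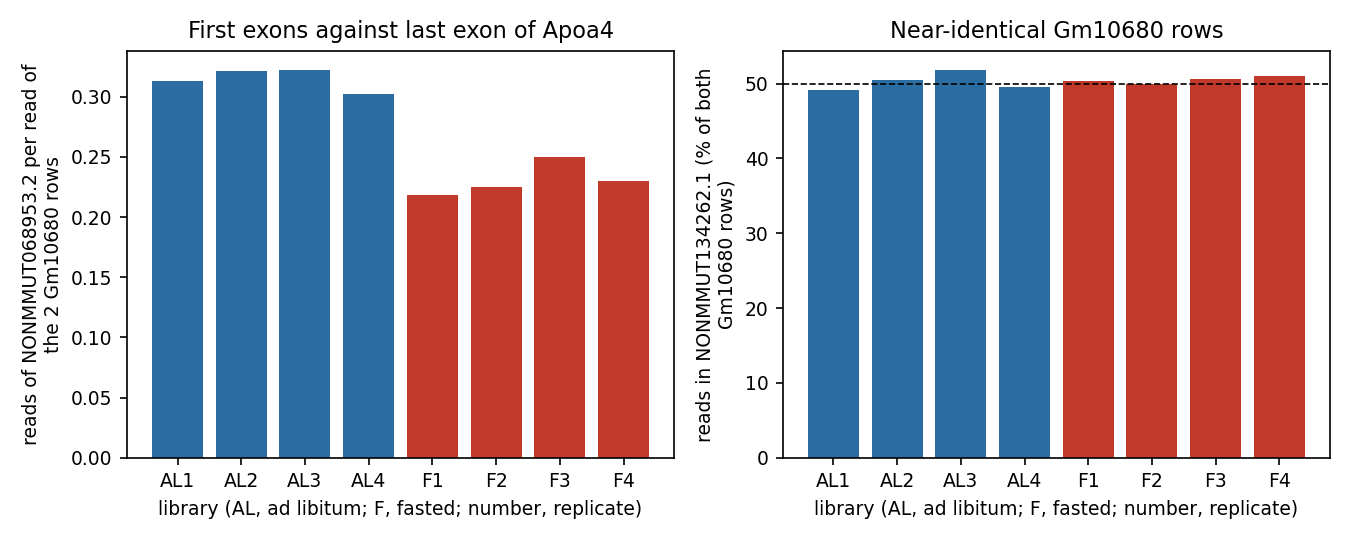
Left, reads of NONMMUT068953.2 per read of the 2 Gm10680 entries; right, share of the reads of both Gm10680 entries that fell in NONMMUT134262.1, with a dashed line at an equal share; 1 bar per library, blue for ad libitum and red for fasted. The ratio lies at 0.302 to 0.322 in ad libitum and 0.218 to 0.250 in fasted libraries, and the share lies at 49.2 to 51.8% in all of them.

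The entries upstream of Apoa1 were at much lower levels per kb, from 0.823 to 1.94 CPM per kb in group means, and 1 of them fell. NONMMUT132476.1 held 1.51, 1.22, 1.46 and 1.72 CPM in the ad libitum libraries (68 to 120 reads) and 0.526, 1.04, 0.718 and 0.798 CPM in the fasted libraries (58 to 140 reads). All fasted libraries were lower, and fasted replicate 1 was lowest. The log2 change was -0.94 ± 0.22 (SE; edgeR adjusted p = 0.0107), but with fasted replicate 4 alone, at -0.89, it did not pass (edgeR adjusted p = 0.245).

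NONMMUT068951.2 held 3.89, 3.09, 3.27 and 3.36 CPM in ad libitum and 1.83, 2.61, 2.97 and 2.72 CPM in fasted libraries. The groups did not overlap, though ad libitum replicate 2 and fasted replicate 3 were close, and the log2 change of -0.43 ± 0.16 did not pass (SE; edgeR adjusted p = 0.0710). NONMMUT068952.2, with the same span, held 2.83, 2.81, 1.81 and 2.90 CPM in ad libitum and 1.66, 1.72, 2.40 and 2.12 CPM in fasted libraries. Here the groups overlapped through ad libitum replicate 3, and the log2 change of -0.40 ± 0.18 did not pass (SE; edgeR adjusted p = 0.139). With fasted replicate 4 alone the log2 changes of these 2 entries were -0.33 and -0.29 (edgeR adjusted p = 0.586 and 0.686).

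The entries over Apoa4 took nearly all reads of the window in both groups. Their share of the window reads was 93.6, 94.7, 94.9 and 95.1% in the ad libitum libraries and 99.8, 99.8, 99.5 and 99.7% in the fasted libraries. The mean share was 94.6 ± 0.671% and 99.7 ± 0.132% (SD, n = 4; difference 5.13 percentage points, exact two-sided permutation p = 0.0286, the smallest possible). Counted per kb of entry length, the mean shares were 96.8 ± 0.371% and 99.8 ± 0.0696%. The rise in share follows from the changes of the same entries given above, so its p is no separate support.

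**Figure D4:**
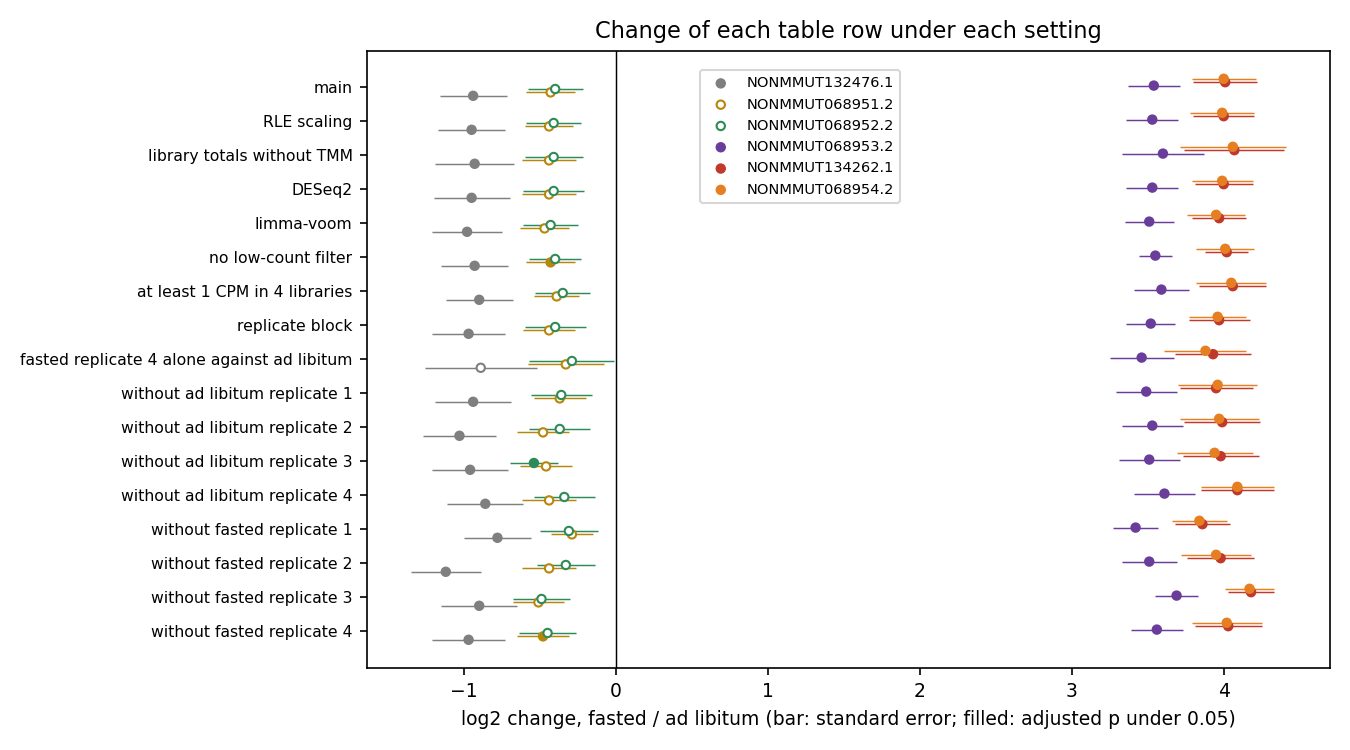
Log2 change (x axis, bar for the standard error) of the 6 entries under the reported fit and its 16 alternatives (y axis), filled where the adjusted p was under 0.05. The 3 Apoa4 entries stay filled between 3.42 and 4.18 throughout; NONMMUT132476.1 is open with fasted replicate 4 alone, and NONMMUT068951.2 and NONMMUT068952.2 are open under most alternatives.

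No tested flanking entry changed as much as those over Apoa4, though nearly all tested flanking entries lay on the Sik3 side. On the Apoa5 side only NONMMUT068960.2 (chr9:46327121-46328902), with 4 to 34 reads per library, was tested (log2 change 0.25). Without a count filter, NONMMUT134259.1, otherwise too low to be tested, had 4.42 (SE 2.04, edgeR adjusted p = 0.148). NONMMUT134263.1 and NONMMUT134265.1, also too low otherwise, had 3.65 and 3.52 there (SE 2.11 and 2.09, edgeR adjusted p = 0.285 and 0.305). The other flanking entries of this kind ran from -1.45 to 2.90, and none of them passed. Within 250 kb of the window on each side lay 28 entries, of which 13 were tested, with a median log2 change of -0.26, against 0.01 over all entries. In all, 1 fell and 1 rose, against 7.67% lower and 9.55% higher among all entries tested. The one that rose was NONMMUT134261.1 (chr9:46209164-46212102, minus strand), within Sik3 and antisense to it. It held 14, 13, 16 and 11 reads in the ad libitum libraries and 108, 102, 61 and 20 reads in the fasted libraries, so that fasted replicate 4 was nearest to the ad libitum group (log2 change 1.56, edgeR adjusted p = 0.0141). With that library alone its log2 change was 0.16 (edgeR adjusted p = 0.921), and it missed the threshold without ad libitum replicate 1 or 4 or fasted replicate 1 (edgeR adjusted p of 0.0521, 0.0587 and 0.0527). The one that fell, NONMMUT068949.2 (chr9:46156405-46159283, plus strand), had a log2 change of -0.56 (edgeR adjusted p = 0.00853), and of -0.62 with fasted replicate 4 alone (edgeR adjusted p = 0.136).

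The values of genes outside the cluster, given next for comparison, are sums of catalogue entries that share exon bases with the gene on either strand, and not of its full mRNA. The counts of each list stand beside 13.2% of all genes higher and 11.3% lower in fasted livers, and beside 5.25% passing with fasted replicate 4 alone. Among the listed genes next to the cluster, 7 were tested, all on the Sik3 side of the window, of which Pcsk7 and Rnf214 rest on 1 shared entry. Of the 7, 0 rose and 1 fell, with a median log2 change of -0.10 against 0.01 over all genes. Sik3, a salt-inducible kinase gene, had 2.07 ± 0.175 CPM in ad libitum and 1.96 ± 0.269 CPM in fasted livers (SD, n = 4; log2 change -0.07). Pafah1b2, which encodes a catalytic subunit of platelet-activating factor acetylhydrolase, fell by 0.28 on the log2 scale (edgeR adjusted p = 0.0461). Its groups overlapped, it passed in 4 of the 16 alternatives only, and with fasted replicate 4 alone its log2 change was -0.20 (edgeR adjusted p = 0.510).

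Of 22 listed apolipoprotein and related genes outside the cluster, 2 had an entry. Apoo, which encodes a protein of the mitochondrial MICOS complex, rose from 0.602 ± 0.0908 to 1.13 ± 0.302 CPM (SD, n = 4; log2 change 0.92, edgeR adjusted p = 0.0157). Its log2 change was 0.27 with fasted replicate 4 alone (edgeR adjusted p = 0.702), and it missed the threshold without ad libitum replicate 1 or 4 or fasted replicate 1 (edgeR adjusted p of 0.0567, 0.0517 and 0.0572). Apool, its homologue, had a log2 change of 0.00. Apob, Apoe and Apoc2 are among the listed genes without a tested entry.

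In lipoprotein assembly and secretion, 11 of 31 listed genes were tested, of which 3 rose and 2 fell (13.2% and 11.3% of all genes), with a median log2 change of 0.02. Sort1, the sorting receptor sortilin that binds apoB-100, fell from 7.57 ± 0.688 to 2.63 ± 0.261 CPM (SD, n = 4; log2 change -1.53, edgeR adjusted p = 1.1e-05). Tmem41b, an endoplasmic reticulum lipid scramblase required for VLDL formation, fell by 0.71 on the log2 scale (edgeR adjusted p = 4.6e-04). Lpin2, a phosphatidate phosphatase of triglyceride synthesis, rose by 0.66 (edgeR adjusted p = 0.00462). All 3 passed with fasted replicate 4 alone, at -1.45, -0.71 and 0.77. Mttp, which lipidates apoB, had 1.01 ± 0.275 and 1.13 ± 0.140 CPM (log2 change 0.16, edgeR adjusted p = 0.602), a gene named for its role and not by the rule for named genes.

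In lipolysis, remodelling and uptake, 11 of 27 listed genes were tested, of which 2 rose and 4 fell (13.2% and 11.3% of all genes), with a median log2 change of 0.01. Abca1, the cholesterol exporter that lipidates apoA-I, fell by 0.71 on the log2 scale (edgeR adjusted p = 7.5e-04), and Lsr, the lipolysis-stimulated lipoprotein receptor, fell by 0.45 (edgeR adjusted p = 0.00540). Cd36, a fatty acid translocase, rose by 1.78 from a low level of 0.548 ± 0.285 CPM (SD, n = 4; edgeR adjusted p = 0.00309). In fasted replicate 4 alone these 3 had -0.53, -0.31 and 1.56, and 0 genes of this list passed.

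Of 39 listed transcription regulators, 18 were tested, of which 2 rose and 1 fell (13.2% and 11.3% of all genes), with a median log2 change of -0.00. Nr3c1, the glucocorticoid receptor gene, fell by 0.58 on the log2 scale (edgeR adjusted p = 5.9e-04). Ppargc1a, a coactivator of fasting metabolism, rose by 1.20 (edgeR adjusted p = 0.00502), and Foxo1, a transcription factor held in check by insulin signalling, rose by 0.26 (edgeR adjusted p = 0.0375; it passed in 7 of 16 alternatives). With fasted replicate 4 alone 0 of the list passed, with values of -0.46, 0.97 and 0.32. Creb3l3, Hnf4a and Ppara are listed and had no tested entry.

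Among known PPARA and CREB3L3 targets, 9 of 39 listed genes were tested, of which 7 rose and 0 fell (13.2% and 11.3% of all genes), with a median log2 change of 1.75. Acot3 and Acot4, acyl-CoA thioesterases of the peroxisome, rose by 2.28 and 1.75 on the log2 scale (edgeR adjusted p = 1.1e-04 and 1.5e-04); they are close paralogues whose entries lie on the opposite strand, so their values are uncertain. For fasted replicate 4 alone 5 passed, Acot3 at 2.47 and Acot4 at 1.92 among them, and the median was 1.12. The log2 change of the Apoa4 sum was 3.93. The highest of these 9 was 3.10, that of Retsat, the retinol saturase gene, which rests on 1 entry of the opposite strand (SE 0.28, edgeR adjusted p = 3.6e-04). With fasted replicate 4 alone Retsat had 2.57.

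**Figure D5:**
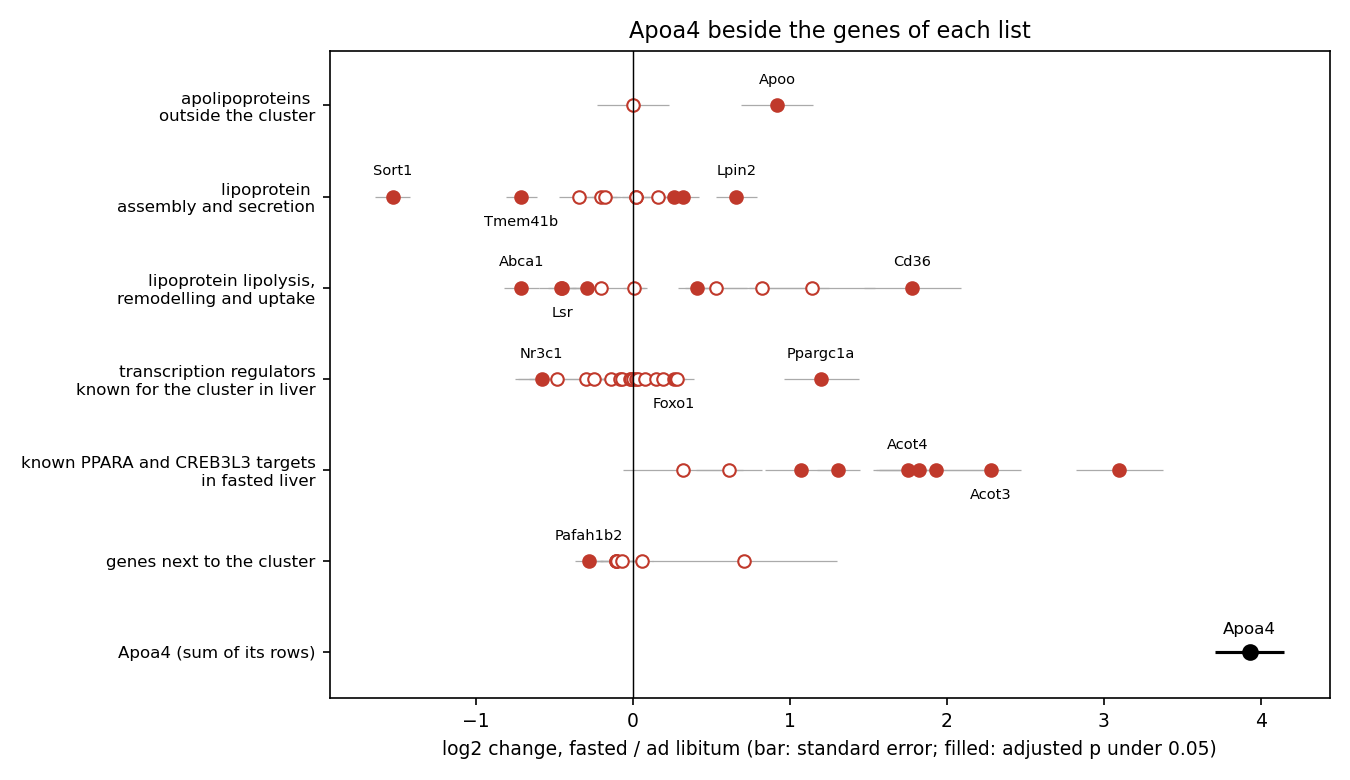
Log2 change in fasted against ad libitum livers (x axis, bar for the standard error) of the tested genes of each list (y axis), filled where the adjusted p was under 0.05, with the named genes labelled and the sum of the Apoa4 entries in black. The Apoa4 sum lies at 3.93, to the right of all listed genes, and the PPARA and CREB3L3 targets lie between 0.32 and 3.10.

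The genes whose pattern over the 8 libraries was most like that of the Apoa4 sum were found by the root mean square difference of centred log2 CPM among 7408 genes with a mean of at least 1 CPM, for which the median difference was 1.98. Gm10680 and Gm47528, which rest on entries of the Apoa4 sum, differed from it by 0.05 and 0.18 and were left out with the rest of the window. B930025P03Rik, a long intergenic RNA gene (chr8:10870422-10882454), was the nearest gene outside the window, at 0.44. It held 1.14, 1.14, 0.520 and 1.13 CPM in the ad libitum libraries and 10.8, 12.8, 8.47 and 9.08 CPM in the fasted libraries. Retsat and Gm45053, which rest on 1 shared entry, followed at 0.58. Next came 1810044K17Rik, another long intergenic RNA gene, at 0.65, and Gm38283 at 0.67. The likeness is a description: it is led by the difference between the groups, and the libraries share their depth and scaling.

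The promoter table of RefSeq (GRCm38.p6) held windows of 250 bases before to 50 after the RefSeq start of Apoa1, Apoa4 and Apoa5, and Apoc3 had no entry. The RefSeq start lay 148 bases after the GENCODE start of Apoa4 and 50 bases after that of Apoa1, so these windows also hold GENCODE exon bases. They were searched on both strands for AGGTCA, the core motif of nuclear receptors, and for DR1, in which that motif is repeated with 1 base of any kind between the copies. They were also searched for CAAAGTCCA, the core of HNF4A sites, for TGACGT, part of the cyclic AMP response element, and for TATAAA, the TATA box. Of 32851 promoters, 16.3% held AGGTCA, 0.0396% DR1, 0.475% CAAAGTCCA, 7.51% TGACGT and 13.6% TATAAA; every DR1 match also holds AGGTCA. The Apoa1 and Apoa4 windows held 0 matches. The Apoa5 window held 1, TATAAA at bases 220 to 225 of its window on the plus strand (chr9:46268577-46268582). A match is a description of letters and not a binding site, and these letters being absent from a window says nothing of the factors.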

How the data were processed

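The table of NONCODE long non-coding RNAs gives raw reads (counts) and RPKM per library, per the file headers, with the exon number, length and CNCI coding-potential score, other values deposited per transcript and of no library. The submitters' processing notes name bcl2fastq 2.17, BWA and mm10; no source used here gives the counting tool, its use of strand or its handling of reads in overlapping transcripts. Deposited counts were tested. RPKM served only to check that empty count cells stand for 0: all 168120 had an RPKM of 0. The mitochondrial 16S rRNA entry, 26 to 31.6% of the reads in 7 libraries and empty in 1, was left out.

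Entries were placed on GENCODE release 21, on the same build. Coding genes took entries sharing exon bases on either strand, non-coding genes those on their own strand, and counts were summed per gene. The fit was edgeR 4.0.16 in R 4.3.3 (TMM, filterByExpr, robust quasi-likelihood F test, two-sided, Benjamini-Hochberg adjustment over all entries or genes tested). CPM are counts scaled by TMM. The SE of an edgeR log2 change was derived from its test, as its absolute value over the square root of the F statistic. Shares and ratios were compared with exact permutation tests over libraries. The edgeR fit over entries was tested on simulated counts, in which no library stood apart. Alternatives were RLE scaling, no TMM, DESeq2 1.42.0, limma-voom (limma 3.58.1), other count filters, the replicate block, fasted replicate 4 alone, and each library left out. Of the lists, up to 3 passing genes of lowest p are named, with the 5 genes most like the Apoa4 sum. A gene that this rule names is not reported here. The members and lists were chosen with earlier results of these data known, so that no list is independent support.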

Additional observations from a re-analysis of the deposited data

Results flagged for a closer look

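Of 54 groups of 4 libraries examined, 3 had 1 library far from the others, and chance flags about 1 in 20 groups. Ad libitum replicate 3 held 1.81 CPM of NONMMUT068952.2, against 2.81 to 2.90 CPM in the other ad libitum libraries, and it was through this library that the groups of this entry overlapped. Ad libitum replicate 4 held 117 CPM of the Apoa4 sum, against 93.7 to 95.8 CPM in the others, and 89.8 CPM of the Gm10680 sum, against 71.4 to 72.5 CPM; the Gm10680 sum is part of the Apoa4 sum. Both values of ad libitum replicate 4 lay far below the lowest fasted library, at 992 and 794 CPM. Without ad libitum replicate 4 the log2 change of the Apoa4 sum was 4.00.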

How the results depend on the processing

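The 3 entries over Apoa4 passed under all 16 alternatives, with log2 changes of 3.42 to 3.69 (NONMMUT068953.2), 3.86 to 4.18 (NONMMUT134262.1) and 3.84 to 4.17 (NONMMUT068954.2), and the Apoa4 sum lay between 3.75 and 4.12. No value that passed changed sign under the alternatives run. NONMMUT132476.1 was -0.89 with fasted replicate 4 alone (edgeR adjusted p = 0.245). NONMMUT068951.2 passed without a count filter (-0.43, adjusted p = 0.0469) and without fasted replicate 4 (-0.48, adjusted p = 0.0413), with -0.51 to -0.29 over the libraries left out. NONMMUT068952.2 passed without ad libitum replicate 3 (-0.54, adjusted p = 0.0489; range -0.54 to -0.31). The causes were not tested. With 1 library left out, 4.80 to 5.29 points of share and a ratio difference of -0.0903 to -0.0795 remained, at an exact p of 0.0571, the smallest that 4 against 3 libraries allow. Entries passing numbered 7033, 4661 on library totals without TMM, 11275 without a count filter, 1344 with fasted replicate 4 alone, and 4158 to 11295 with 1 library left out (4588 without the fourth ad libitum library, and 4158, 4195 and 11295 without fasted replicates 1, 3 and 4). Genes passing numbered 2915, 624 with fasted replicate 4 alone, and 1729 to 3850 (1772 and 1796 without ad libitum replicates 1 and 4, 1729 and 1748 without fasted replicates 1 and 3). Entries split into 3902 higher and 3131 lower, against 2382 and 2837 by limma-voom. Genes split into 1568 and 1347, against 1578 and 430 without TMM, where the median log2 change of all genes was 0.17 in place of 0.01. Relative to either, the Apoa4 sum rose. With 1 library left out, the genes called in the lists were 0 to 1 (apolipoproteins, higher), 1 to 3 and 2 to 3 (assembly, higher and lower), 1 to 2 and 2 to 4 (lipolysis), 1 to 2 and 1 (regulators), 7 to 8 and 0 (targets) and 0 to 1 (neighbours, lower); the lowest counts came without ad libitum replicate 1 or fasted replicate 1, among others. Same-numbered mice did not deviate together (correlations -0.00113 to 0.0397), and the replicate block gave 5650 entries and 2198 genes and 3.52, 3.97 and 3.96 for the Apoa4 entries. No entry lay on the strand of Apoa4, so that the sum over own-strand entries gave no value. The upstream entries held 58 to 352 reads per library, far fewer than those over Apoa4; whether depth set which of them passed was not tested.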
